A study of Homo sapiens with 6 samples.

Results

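The proteasome subunit genes are the 39 human genes whose symbol is PSMA, PSMB, PSMC or PSMD followed by a number, of 57992 gene IDs counted in OVCAR8 cells. They were chosen by symbol alone in the authors' merged count table, where 56 lines matched and 17 of those held no counts, and the rule uses no measured value. Of the 39 genes, 7 encode the constitutive alpha ring, 7 the constitutive beta ring, 3 the immunoproteasome subunits and 2 tissue-restricted core subunits. A further 17 encode subunits of the regulatory particle (6 ATPases, 3 other base subunits and 8 lid subunits), and 3 encode chaperones that assemble its base. Subunits of the particle with other symbols, such as ADRM1, fall outside the rule.

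OVCAR8 is an established human ovarian carcinoma cell line, and relaxin-2 (RLN2) is a peptide hormone related to insulin. The treated group received recombinant human RLN2 at 50 ng/mL for 8 hours after 16 hours without serum (3 libraries, replicates 1 to 3). The untreated group was starved of serum in the same way and received no hormone (3 libraries, replicates 2 to 4). The labels describe triplicates of 1 cell line without saying whether they were separate cultures, so the p-values rest on a spread between libraries that may be only technical.

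The proteasome is the protease that degrades most short-lived and damaged proteins in the cytosol and nucleus. Its barrel-shaped core is built of stacked alpha and beta rings; the alpha rings gate the entry, and the proteolytic sites lie on the beta subunits PSMB5, PSMB6 and PSMB7. The regulatory particle recognises ubiquitin chains, removes them, and unfolds and threads the substrate with its ring of ATPases. Under interferon signalling, and at rest in immune cells, PSMB8, PSMB9 and PSMB10 replace the constitutive catalytic subunits in newly made cores, which shifts the peptides available to major histocompatibility complex class I.

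The libraries held 11939147 to 21926212 reads assigned to genes in the RLN2 group and 17175308 to 22426768 in the untreated group. Epithelial markers of ovarian carcinoma summed to 2365, 2797 and 2872 CPM (counts-per-million, after scaling between libraries) in RLN2 libraries, against 1498, 2465 and 2565 CPM in untreated libraries; 7 of 8 were detected well enough to test, and MUC16 was at or near 0. Leukocyte markers summed to 0.167 to 0.273 CPM in RLN2 libraries and 0.132 to 0.404 CPM in untreated libraries, with CD3E at 0 in all 6. Fibroblast markers summed to 17.6 to 18.6 CPM in RLN2 libraries and 10.4 to 17.8 CPM in untreated libraries, almost all of it PDGFRB, with DCN at 0 in all 6. No 2 libraries agreed within sampling noise. Untreated replicate 2 and RLN2 replicate 2 stood apart from the others. Over genes, the chi-square per degree of freedom between either of them and the remaining 4 libraries was 31.0 or more, against 12.9 or less between those 4. In untreated replicate 2 this went with GC content. The deviation of its genes from the mean of the 6 libraries correlated with transcript GC content at r = -0.77 across genes, against 0.12, 0.57 and 0.57 in RLN2 replicates 1 to 3, and -0.16 and 0.19 in untreated replicates 3 and 4. RLN2 replicate 2 had the fewest gene reads and 27.0% of its reads mapping to several places. Values without untreated replicate 2 are given below beside the results it moves most; without RLN2 replicate 2 no tested member's log2 fold change turned sign.

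Promoters of the 3 immunoproteasome genes, and of PSMC3 and PSMC5, which had the smallest unadjusted p of all members in the comparison of the groups, are printed here because they show what surrounds the start of the genes the results turn on. They are the 250 bases before each RefSeq start on GRCh38.p14, 5′ to 3′ on the gene's strand. RefSeq starts were found for 34 of the 39 members. The gene coordinates given further on come from GENCODE 29, whose outermost gene bounds differ from these starts. By those bounds the windows of PSMB9 and PSMC5 lie wholly inside the gene, and those of PSMB8, PSMB10 and PSMC3 partly. Capitals mark any match, on either strand, to TGACNNNGC (the core of the antioxidant response element, which NFE2L1 and NFE2L2 are known to bind), CCAAT (the CCAAT box) or the core of the interferon-stimulated response element (GAAA, any 2 bases, GAAA). No matches overlapped in the printed sequences.
PSMB8, chr6:32844680-32844929, minus strand: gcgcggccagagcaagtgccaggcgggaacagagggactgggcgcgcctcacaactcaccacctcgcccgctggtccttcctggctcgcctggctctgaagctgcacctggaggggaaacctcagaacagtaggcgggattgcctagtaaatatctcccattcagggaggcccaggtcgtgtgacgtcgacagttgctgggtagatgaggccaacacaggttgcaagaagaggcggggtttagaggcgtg
PSMB9, chr6:32853942-32854191, plus strand: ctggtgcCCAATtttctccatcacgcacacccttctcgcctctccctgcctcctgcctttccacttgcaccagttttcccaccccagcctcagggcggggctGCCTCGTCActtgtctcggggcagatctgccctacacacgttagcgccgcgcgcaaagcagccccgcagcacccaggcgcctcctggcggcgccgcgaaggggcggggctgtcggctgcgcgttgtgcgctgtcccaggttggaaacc
PSMB10, chr16:67936851-67937100, minus strand: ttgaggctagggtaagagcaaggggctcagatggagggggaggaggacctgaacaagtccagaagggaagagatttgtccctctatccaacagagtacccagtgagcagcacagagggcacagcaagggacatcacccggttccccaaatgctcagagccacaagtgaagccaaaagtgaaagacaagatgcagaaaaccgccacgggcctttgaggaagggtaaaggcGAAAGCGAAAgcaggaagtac
PSMC3, chr11:47426440-47426689, minus strand: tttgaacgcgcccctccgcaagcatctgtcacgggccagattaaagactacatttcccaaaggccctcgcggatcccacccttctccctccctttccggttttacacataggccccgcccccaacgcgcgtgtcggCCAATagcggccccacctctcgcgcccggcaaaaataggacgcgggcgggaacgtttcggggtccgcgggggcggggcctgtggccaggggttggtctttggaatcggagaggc
PSMC5, chr17:63827181-63827430, plus strand: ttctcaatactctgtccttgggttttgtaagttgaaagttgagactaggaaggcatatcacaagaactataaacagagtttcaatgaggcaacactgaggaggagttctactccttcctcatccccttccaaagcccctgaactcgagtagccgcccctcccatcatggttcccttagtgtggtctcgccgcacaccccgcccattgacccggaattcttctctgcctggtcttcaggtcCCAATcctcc
The PSMB8 window held none of the 3 motifs. PSMB9 had a match to TGACNNNGC starting 148 bases before the start, read on the opposite strand, and a CCAAT box at 243 bases. PSMB10 had the interferon-stimulated response element core at 21 bases, and PSMC3 and PSMC5 had a CCAAT box at 114 and 10 bases. Over the members, TGACNNNGC was in 6 of 34 windows (17.6%), against 11.03% of all 27305 promoters of the same length. CCAAT was in 16 of 34 (47.1%), against 33.0%, and the interferon-stimulated response element core was in 3 of 34 (8.82%: PSMA4, PSMB4 and PSMB10), against 3.07%. These are letter matches and describe the sequence alone.

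Most constitutive subunits were more abundant than the immunoproteasome subunits. The scale was CPM per kilobase of the principal transcript, the longest where a gene has several. On this scale the catalytic subunit PSMB7 had the highest level, 283 ± 5.52 in RLN2 libraries and 282 ± 7.90 in untreated libraries (mean ± SD, n = 3 each). It was followed by the alpha subunit PSMA7, with 205 ± 2.93 CPM per kb in RLN2 libraries and 191 ± 15.8 in untreated libraries, and the beta subunit PSMB1, with 188 ± 11.5 in RLN2 libraries and 203 ± 4.89 in untreated libraries. The order of PSMA7 and PSMB1 differed between the groups, and in untreated libraries they differed by less than the SD of PSMA7. PSMB8, the inducible form of PSMB5, had 23.1 ± 0.326 CPM per kb in RLN2 libraries and 19.5 ± 2.97 in untreated libraries. It had place 30 of the 32 members ranked over all 6 libraries, just above the constitutive ATPase PSMC2. That order depends on the length used: per kilobase of all annotated exons PSMB8 had 7.99 CPM (place 31) and PSMC2 17.2 CPM (place 27). PSMB9, the inducible form of PSMB6, was last, with 4.20 ± 0.127 CPM per kb in RLN2 libraries and 2.86 ± 0.583 in untreated libraries.

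By particle, the median level over all 6 libraries was 117 CPM per kb for the beta ring (7 genes) and 110 for the alpha ring (4 genes). It was 82.3 for the non-ATPase base subunits, 60.04 for the ATPases, 54.1 for the lid and 29.5 for 2 of the base chaperones. Among the ATPases the level ran from 19.98 CPM per kb for PSMC2 to 91.3 for PSMC3, although the ring holds 1 copy of each. With the length of all annotated exons in place of the principal transcript, PSMB7 stayed first and PSMB9 last, while PSMD6, a lid subunit, had place 30 in place of 14, and the alpha ring's median (45.7 CPM per kb) lay below that of the non-ATPase base subunits (52.0). In all, 5 members are left out of this ranking, because another gene on the same strand covers 58.3% to 97.1% of their coding bases in GENCODE 29: PSMA1, PSMA2, PSMA6, PSMB10 and PSMD9. STAR counts such reads as ambiguous and gives them to no gene, so the levels of these 5 are uncertain. Reads that map to several places are also left out, which bears on PSMC1, with 13 named pseudogenes, and on PSMA6, with 4.

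**Figure D1:**
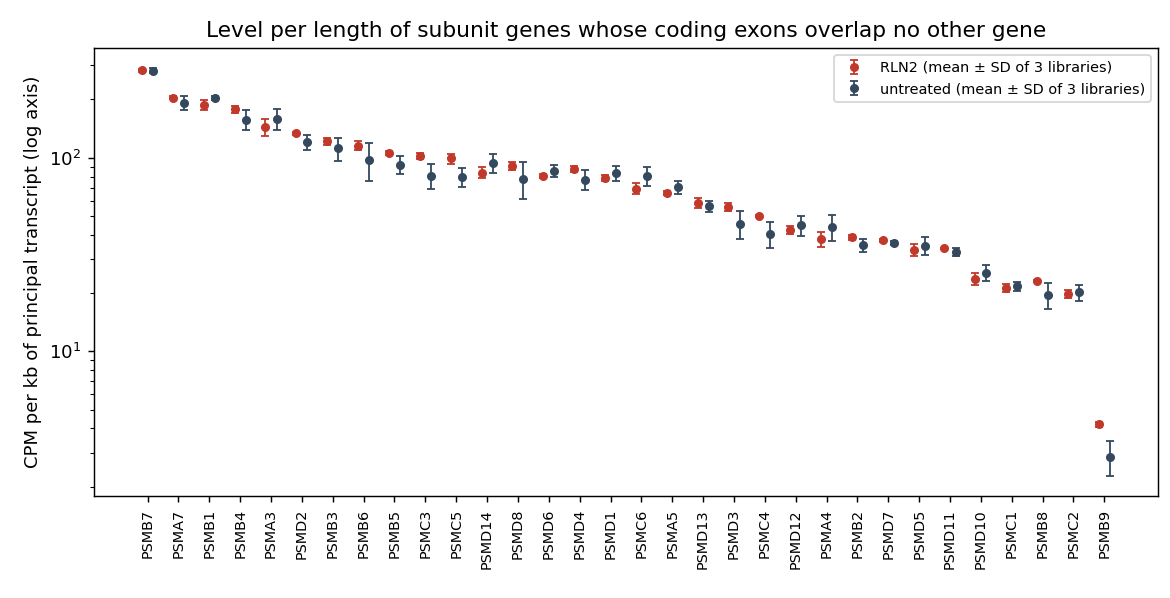
Level of each ranked subunit gene in CPM per kilobase of its principal transcript (log axis), in order of its mean over the 6 libraries, with RLN2 and untreated library means and their SD. PSMB7 is highest at about 283 CPM per kb, and PSMB9 is lowest at 4.20 in RLN2 libraries and 2.86 in untreated libraries.

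The core subunits of other tissues were at or near 0. PSMA8, the alpha subunit of germ cells, had 0 reads in any library; a floor of 3 counts over 113628273 gene reads allows a level of up to 0.0264 CPM. PSMB11, the catalytic subunit of the thymic cortex, had 6 reads in the RLN2 group and 1 in the untreated group, 0.0248 to 0.127 CPM over all libraries (exact Poisson interval, 95%). These limits cover counting error only, and neither gene was tested.

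Between the groups, the subunit genes differed little. The comparison asks what 8 hours of RLN2 did to the transcripts, and no member passed the threshold. Of 37 tested members 0 had an adjusted p under 0.05 (edgeR quasi-likelihood test, Benjamini-Hochberg adjustment over 16740 genes), and the same test called 0% of all genes, with a smallest adjusted p of 0.408. DESeq2 and limma-voom also called 0 genes. By edgeR an unadjusted p under 0.05 was reached by 7 members (18.9% of those tested, 6 higher and 1 lower), against 10.8% of all genes (1811). The members' count depended on the test. DESeq2 gave 4 of 37 members, all higher, against 10.0% of all genes (1677). By limma-voom 6 of 37 members, all higher, reached it, against 12.3% of all genes (2058). Without untreated replicate 2 the members' count by edgeR was 4 (10.8%), below the 12.5% of all genes in that setting. The count was 11 of 37 without untreated replicate 4, 2 of 37 without RLN2 replicate 2 and 1 of 37 without RLN2 replicate 3. In those settings all genes gave 20.8%, 2.83% and 3.64%. In bulk RNA, fewer cells with a transcript and less of it per cell cannot be told apart.

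The 34 tested members outside the immunoproteasome had log2 fold changes of -0.33 to 0.33, that is 0.793-fold to 1.26-fold, RLN2 over untreated. The median over all 37 was 0.06, against -0.01 over all tested genes, and 22 were higher and 15 lower. The median SE of a member was 0.09, against 0.16 over all genes. Of the 32 ranked members 31 had over 1000 reads in total, and PSMB9 had 306. Among the tested members left out of that ranking, PSMA2 had 972 reads, PSMD9 901 and PSMB10 97. PSMA2 had the lowest and PSMB10 the highest log2 fold change of all tested members. The 3 RLN2 libraries lay wholly above the 3 untreated ones for 11 members, or wholly below for 2, together 35.1% of the tested members. The share of all genes was 10.8% for higher and 10.5% for lower, 21.4% in all.

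**Figure D2:**
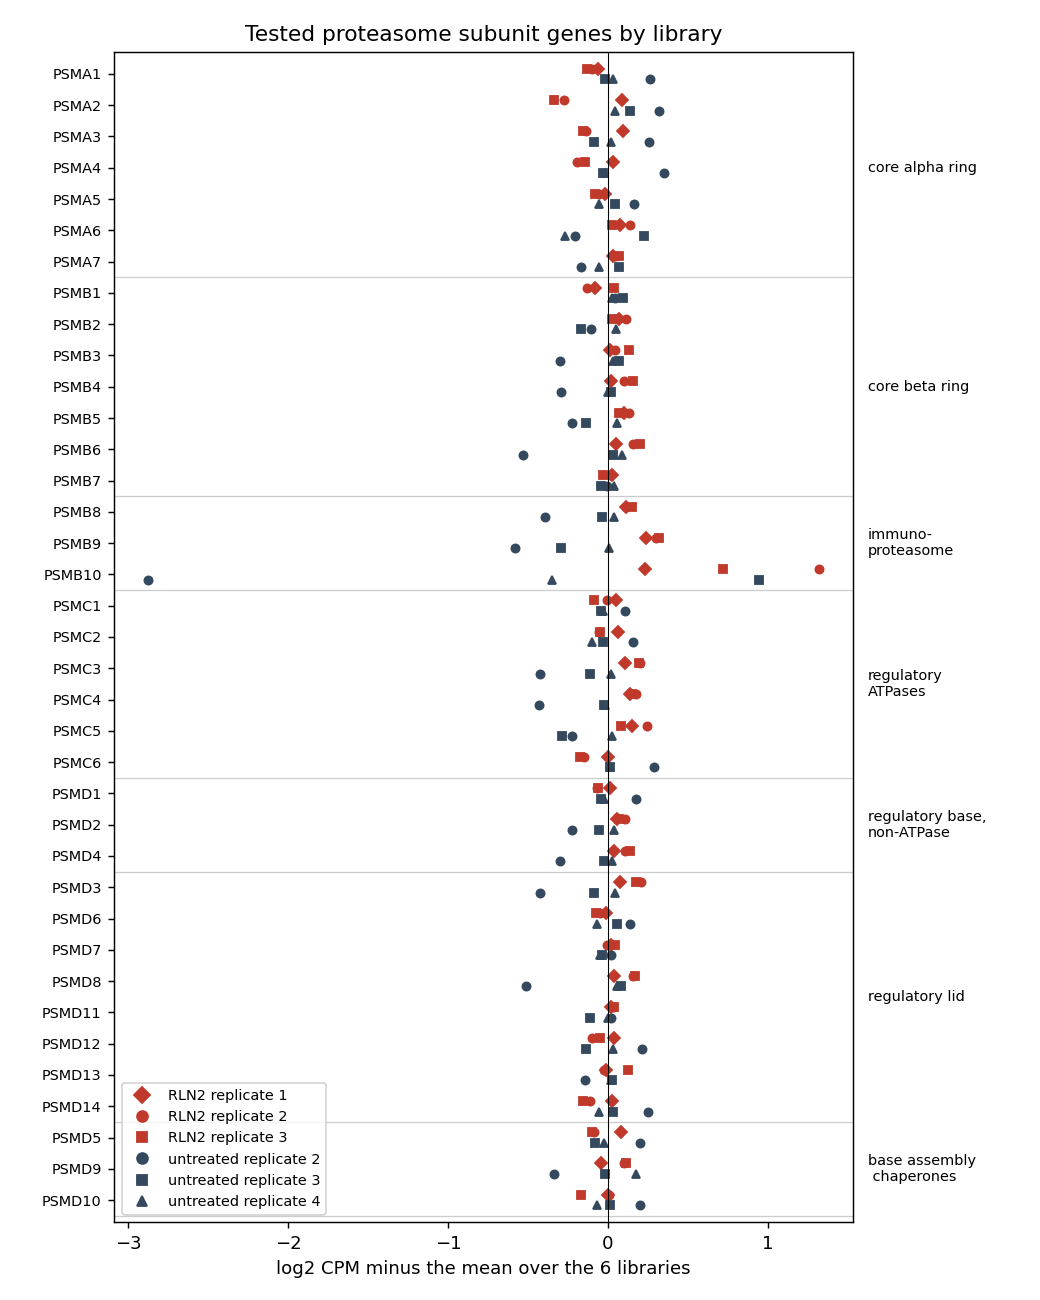
Level of each tested subunit gene in each library as log2 CPM minus the mean over the 6 libraries, grouped by particle, with RLN2 libraries in red and untreated libraries in dark blue. Untreated replicate 2 is the outermost point for many genes, and PSMB10, with 97 reads in all, spreads most.

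The catalytic beta subunits hold the proteolytic sites. PSMB5, the chymotrypsin-like subunit, had 136, 139.6 and 134 CPM in RLN2 libraries, against 109, 116 and 133 CPM in untreated libraries. Its groups did not overlap, but the highest untreated library came within about 1 CPM of the lowest RLN2 library, and the log2 fold change was 0.20 ± 0.08 (SE; unadjusted p = 0.048). PSMB6, the caspase-like subunit, had 92.6, 99.8 and 103 CPM in RLN2 libraries, against 62.0, 91.7 and 95.1 CPM in untreated libraries. Its groups overlapped, untreated replicate 2 alone was low, and the log2 fold change of 0.25 ± 0.15 was 0.08 without that library. PSMB7, the trypsin-like subunit, had 282, 279.7 and 272 CPM in RLN2 libraries and 276, 269 and 284 CPM in untreated libraries. All 6 values lay close together, and its log2 fold change was 0.01 ± 0.06 (95% interval -0.13 to 0.14). The remaining 4 beta subunits are structural, and over the 7 genes of the ring 6 were higher and 1 lower, with a median log2 fold change of 0.14 and 2 without overlap (PSMB4 and PSMB5); the median was 0.08 without untreated replicate 2.

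The alpha ring, which gates the core, had the opposite balance. Of its 7 members 2 were higher and 5 lower, with a median log2 fold change of -0.13; with the offsets for GC content and length described further on, 4 were higher and 3 lower, with a median of 0.05. PSMA4 had 183, 157 and 162 CPM in RLN2 libraries, against 229, 176 and 177 CPM in untreated libraries. Untreated replicate 2 was far above the rest and the groups overlapped, with a log2 fold change of -0.21 ± 0.12, which was -0.07 without that library. PSMA1, with 33.2, 32.3 and 31.5 CPM in RLN2 libraries and 41.6, 34.2 and 35.3 CPM in untreated libraries, was the only alpha subunit whose groups did not overlap (-0.20 ± 0.10, and -0.10 without untreated replicate 2). PSMA2 had 8.85, 6.88 and 6.59 CPM in RLN2 libraries and 10.4, 9.17 and 8.59 CPM in untreated libraries, with overlap in 1 library and the lowest log2 fold change of all members (-0.33 ± 0.16). PSMA1 and PSMA2 are among the 5 members with most of their coding bases shared with another gene.

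All 3 immunoproteasome genes were higher after RLN2, with a median log2 fold change of 0.56, and 2 of them had few reads. The median was 0.34 with the offsets, 0.26 when untreated replicate 2 was left out and 0.14 when RLN2 replicate 2 was left out as well. The middle gene differed between settings: PSMB9 for 0.56, PSMB10 for 0.34 and 0.26, and PSMB8 for 0.14. PSMB9 itself was 0.48 with the offsets, 0.43 without untreated replicate 2 and 0.44 without both libraries numbered 2. PSMB9 (chromosome 6, 32844136 to 32859585, GRCh38) had 57, 38 and 74 reads in RLN2 libraries and 40, 50 and 47 reads in untreated libraries. Scaled for depth these are 3.17, 3.31 and 3.36 CPM in RLN2 libraries, against 1.80, 2.19 and 2.71 CPM in untreated libraries. The RLN2 values were nearly equal and all above the untreated ones; the log2 fold change was 0.56 ± 0.19, or 1.48-fold, with an unadjusted p of 0.018 and an adjusted p of 0.408 by edgeR's quasi-likelihood test. PSMB8 (chromosome 6, 32840717 to 32844703), its neighbour on the opposite strand, had 25.8, 25.8 and 26.4 CPM in RLN2 libraries, against 18.1, 23.2 and 24.4 CPM in untreated libraries. Its groups did not overlap, and its log2 fold change of 0.25 ± 0.13 was 0.13 without untreated replicate 2, the lowest library. PSMB10 (chromosome 16, 67934502 to 67937087), the inducible form of PSMB7, had 14, 19 and 24 reads in RLN2 libraries and 2, 29 and 9 reads in untreated libraries. Its groups overlapped and its log2 fold change of 0.82 ± 0.66 had a 95% interval of -0.70 to 2.34; it was 0.26 without untreated replicate 2 and 1.97 without untreated replicate 3, so single libraries decided it.

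Each inducible subunit replaces 1 constitutive subunit, so their reads were also set against each other within a library, where depth cancels. PSMB8 had 18.9%, 18.5% and 19.8% of the reads of PSMB5 in RLN2 libraries, against 16.6%, 20.03% and 18.4% in untreated libraries. The groups overlapped, with a log2 difference of 0.06 (exact two-sided permutation test over 20 assignments, p = 0.6). PSMB9 had 3.43%, 3.32% and 3.27% of the reads of PSMB6 in RLN2 libraries, against 2.90%, 2.39% and 2.85% in untreated libraries. All RLN2 values lay above all untreated values, a log2 difference of 0.30, and the exact p of 0.1 is the smallest that 3 against 3 libraries allow (0.3 adjusted over the 3 ratios). Leaving out each library gave differences of 0.21 to 0.35. PSMB10 had 0.276%, 0.592% and 0.402% of the reads of PSMB7 in RLN2 libraries, against 0.0326%, 0.473% and 0.183% in untreated libraries (log2 difference 1.41, exact p = 0.3, adjusted 0.45). Leaving out each library gave 0.44 to 2.23, so single libraries set its size. In the 6 libraries the constitutive subunit thus had more reads than the inducible one in each pair, also per kilobase. For PSMB10 the ratio is uncertain, because another gene on the same strand covers 58.3% of its coding bases. Reads there are given to no gene.

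**Figure D3:**
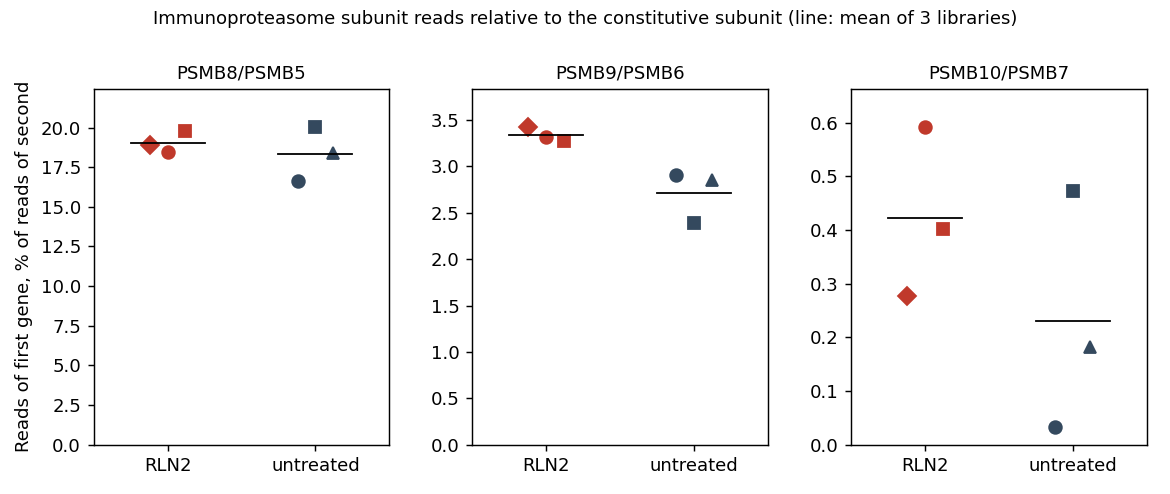
Reads of each inducible catalytic subunit as a percentage of the reads of its constitutive counterpart, with 1 point per library and a line at the mean, RLN2 left of untreated. PSMB9 against PSMB6 separates the groups (3.27% to 3.43% and 2.39% to 2.90%), and the other ratios overlap.

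The regulatory ATPases, which unfold substrates, held 4 of the 7 members with an unadjusted p under 0.05 (edgeR quasi-likelihood test). That is 4 of 6 ATPases, against 10.8% of all genes. PSMC6 was not among them by the other tests (unadjusted p = 0.085 by DESeq2 and 0.058 by limma-voom). PSMC5 (chromosome 17, 63827152 to 63832026) had 155, 166 and 148 CPM in RLN2 libraries, against 120.0, 115 and 142 CPM in untreated libraries. The groups did not overlap, with untreated replicate 4 close below the RLN2 values, and its log2 fold change of 0.32 ± 0.09 had the smallest unadjusted p of all members (0.010; adjusted p = 0.408, edgeR quasi-likelihood test). PSMC3 (chromosome 11, 47418769 to 47426473) had 154, 164 and 164 CPM in RLN2 libraries, against 107, 132 and 145 CPM in untreated libraries. PSMC4 had 78.6, 80.5 and 79.2 CPM in RLN2 libraries, against 52.8, 70.0 and 70.5 CPM in untreated libraries. For both the groups did not overlap and untreated replicate 2 was lowest. The log2 fold changes were 0.33 ± 0.11 for PSMC3 and 0.30 ± 0.11 for PSMC4, and without that library 0.22 and 0.18. With the offsets for GC content and length described further on, PSMC3 was 0.17, PSMC4 0.13 and PSMC5 0.24.

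The other 3 ATPases went the other way or had values near 0. PSMC6 had 163, 147 and 145 CPM in RLN2 libraries, against 199, 165 and 164 CPM in untreated libraries. The groups did not overlap, by a margin of about 1 CPM, and the log2 fold change was -0.22 ± 0.09 (unadjusted p = 0.0498), and -0.12 without untreated replicate 2. PSMC1 and PSMC2 each had -0.03, with SEs of 0.07 and 0.09. The 6 ATPase genes, whose products form 1 ring, thus split into 3 higher and 3 lower; with the offsets 5 were higher, and so were 5 without untreated replicate 2.

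Among the non-ATPase base subunits, PSMD2, a scaffold that binds ubiquitin-like domains, had 454, 471 and 459 CPM in RLN2 libraries, against 374, 421 and 448 CPM in untreated libraries. PSMD4, a receptor for ubiquitin chains, had 114, 119 and 122 CPM in RLN2 libraries, against 90.0, 109 and 113 CPM in untreated libraries. Neither pair of groups overlapped, each with untreated replicate 2 lowest, and the log2 fold changes were 0.15 ± 0.08 for PSMD2 and 0.19 ± 0.09 for PSMD4, with 0.09 for both without that library. PSMD14, the deubiquitinase of the lid, which cleaves chains off the substrate, had 176, 160.2 and 155 CPM in RLN2 libraries, against 206, 177 and 167 CPM in untreated libraries. Its groups overlapped and its log2 fold change was -0.16 ± 0.09, or -0.07 without untreated replicate 2. Over the 8 lid genes 5 were higher and 3 lower, with a median of 0.05. The lid subunit PSMD3 had the smallest p of the lid, with 114, 126 and 123 CPM in RLN2 libraries, against 80.8, 102 and 112 CPM in untreated libraries, and a log2 fold change of 0.30 ± 0.12 (unadjusted p = 0.037), which was 0.17 without untreated replicate 2.

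The 3 chaperones that assemble the base are not part of the finished particle. PSMD5, PSMD9 and PSMD10 had log2 fold changes of -0.07 ± 0.09, 0.11 ± 0.16 and -0.11 ± 0.10, and all 3 had overlapping groups. PSMD9 had the fewest reads of the 3, with 7.74, 8.54 and 8.59 CPM in RLN2 libraries and 6.30, 7.85 and 8.99 CPM in untreated libraries. Its level is uncertain, because 58.7% of its coding bases are shared with other annotation on the same strand.

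**Figure D4:**
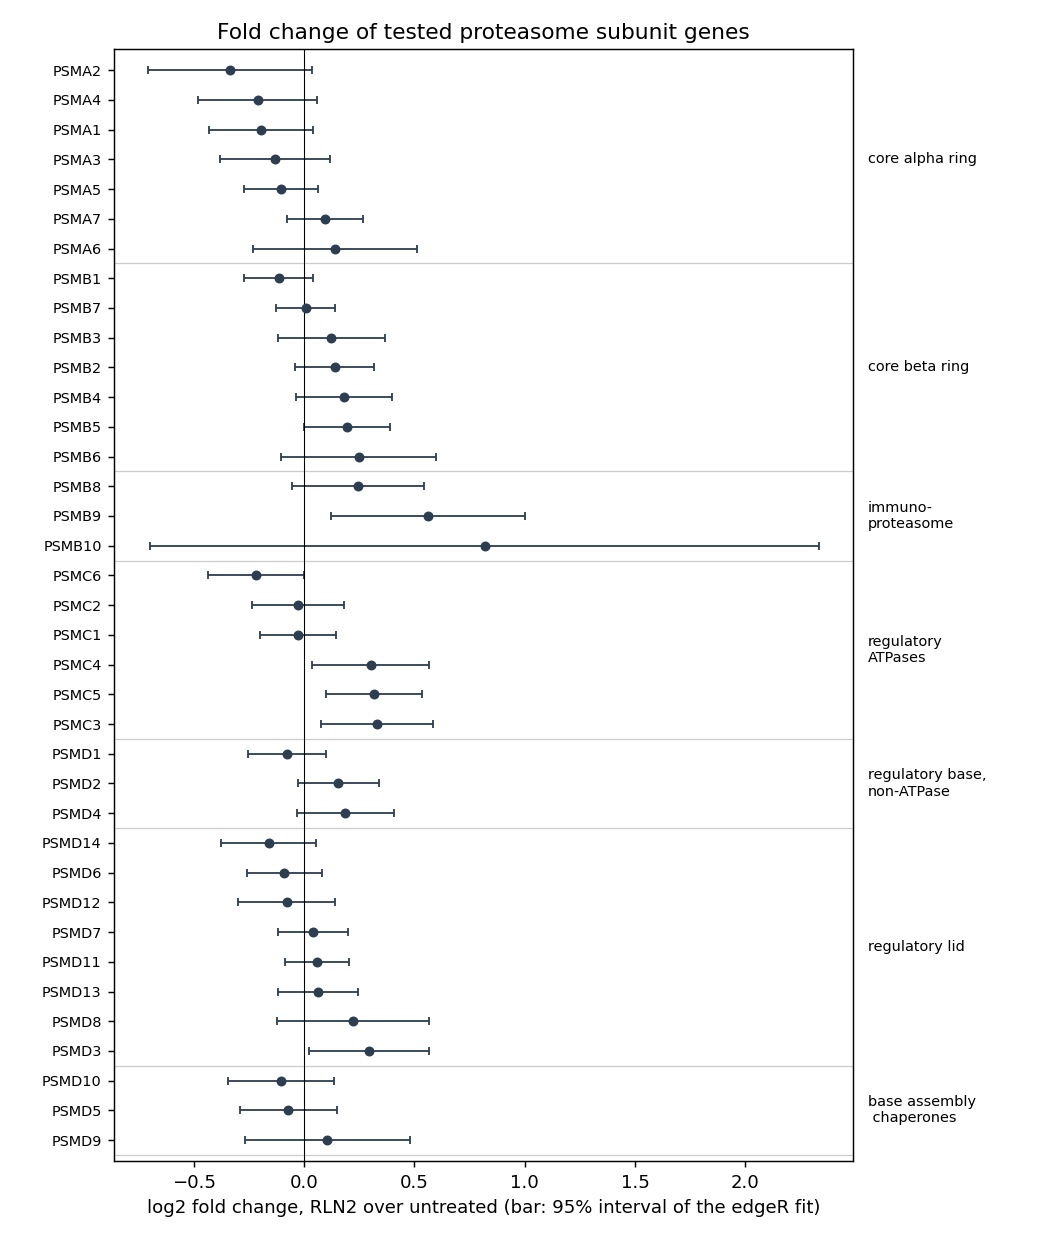
Log2 fold change, RLN2 over untreated, of each tested subunit gene with its 95% interval, by particle. All members outside the immunoproteasome lie between -0.33 and 0.33, and no gene passed the adjusted threshold.

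Summed over all members, the scaled counts were 4692, 4630 and 4620 CPM in RLN2 libraries, against 4515, 4482 and 4586 CPM in untreated libraries. The sums did not overlap (4647 ± 39.0 and 4527 ± 53.2 CPM, SD, n = 3 each), but the difference rests on the scaling between libraries. As an unscaled share of gene reads, the members took 0.469%, 0.445% and 0.464% in RLN2 libraries and 0.452%, 0.455% and 0.463% in untreated libraries, which overlap. The constitutive core rings summed to 1863 ± 20.3 CPM in RLN2 libraries and 1857 ± 5.53 CPM in untreated libraries, a difference below the spread between replicates. The 17 members of the regulatory particle summed to 2593 ± 16.8 CPM in RLN2 libraries and 2477 ± 49.3 CPM in untreated libraries, without overlap. As an unscaled share of gene reads, however, they took 0.260%, 0.250% and 0.258% in RLN2 libraries and 0.246%, 0.248% and 0.256% in untreated libraries, which overlap.

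The spread of the fold changes among the members followed the GC content of their transcripts. Across the 37 tested members, which share the same 6 libraries, log2 fold change and GC content correlated at r = 0.89, and across 16673 genes at r = 0.71 (a description over genes, which are not replicates). All 16 members with a GC content of 50% or more were higher after RLN2, with a median of 0.23, and 6 of the 21 members under 50% were, with a median of -0.08; the split at 50% was chosen after seeing the data. Over all genes the same split gave 83.0% of 7492 genes higher (median 0.25) and 19.2% of 9181 genes higher (median -0.12). PSMC3, PSMC4 and PSMC5 have transcripts of 54.9%, 55.2% and 52.9% GC, and PSMC6, PSMA2 and PSMA4 of 40.2%, 39.6% and 40.5%. Those of the immunoproteasome genes PSMB8, PSMB9 and PSMB10 have 53.3%, 53.2% and 62.0%.

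Offsets that removed each library's smooth trend on GC content and length brought r to 0.50 across the members and to -0.01 across all genes. Then 32 members were higher and 5 lower, with a median of 0.08, against 0.01 and 52.4% higher over all genes. An unadjusted p under 0.05 was reached by 10 of 37 members, all higher, against 1758 of 16673 genes (10.5%). No member passed (smallest adjusted p of a member 0.395 by edgeR's quasi-likelihood test, against 0.0942 to 0.766 over all alternatives). The extremes drew in: PSMC6 was -0.03, PSMA4 -0.02, PSMA2 -0.15, PSMC3 0.17 and PSMC4 0.13, while PSMC5 was 0.24 and PSMB9 0.48. PSMB8 was 0.16 and PSMB10 0.34. Without untreated replicate 2 and with no offsets, 25 members were higher and 12 lower, the median was 0.04 and r was 0.72. Without both libraries numbered 2, 27 were higher and 10 lower, the median was 0.05 and r was 0.57. What part GC content has in the differences between the groups was not tested.

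**Figure D5:**
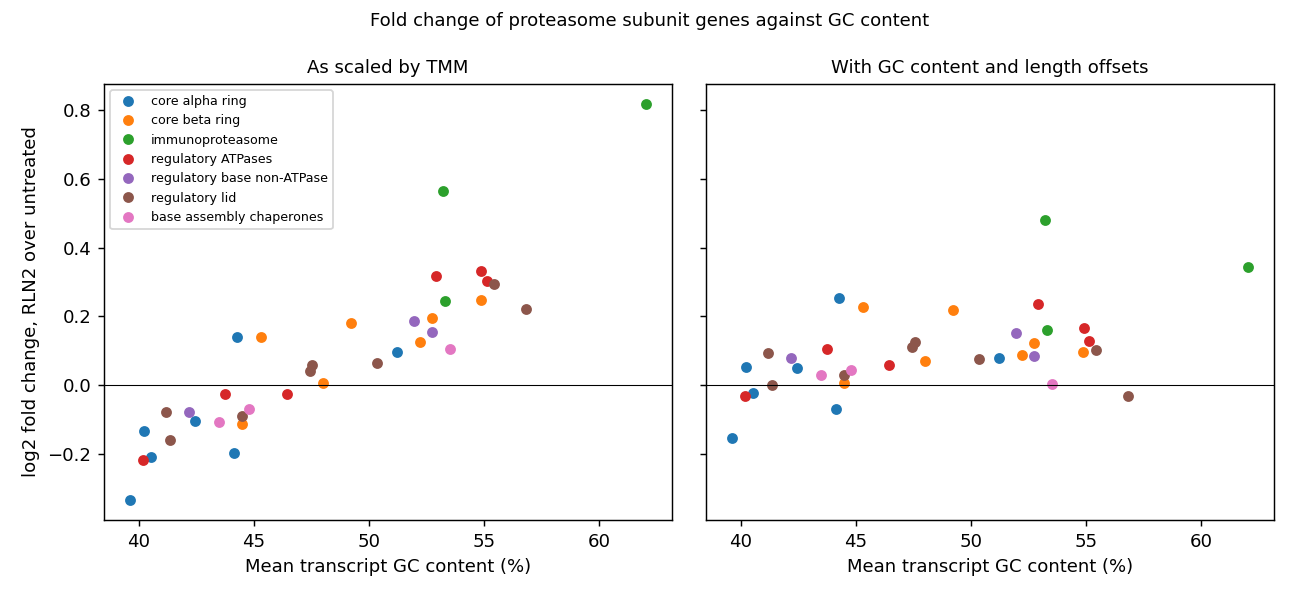
Log2 fold change, RLN2 over untreated, against transcript GC content in percent for the 37 tested members, without offsets and with offsets for GC content and length. Without offsets the points climb with GC content (r = 0.89), and with offsets the slope is weaker (r = 0.50) and 32 of 37 points lie above 0.

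Genes that build, cap, feed or regulate the proteasome also held no member past the test (0 called in each of the 6 lists by edgeR's quasi-likelihood test). Of the 6 core assembly chaperones 1 was higher and 5 lower, with a median log2 fold change of -0.08; PSMG1, which helps form the alpha ring, had -0.18 ± 0.08, and PSMG3 0.28 ± 0.20, which was -0.09 with the offsets and 0.07 without untreated replicate 2. Of the 5 alternative caps and the inhibitor 4 were higher and 1 lower, with a median of 0.05. PSMF1, an inhibitor of the core, had 122, 125 and 129 CPM in RLN2 libraries, against 101, 106 and 118 CPM in untreated libraries, and PSME4, the PA200 cap, had 127, 128 and 116 CPM in RLN2 libraries, against 145, 157 and 131 CPM in untreated libraries. The groups did not overlap for either gene, in opposite directions, with 0.21 ± 0.08 for PSMF1 and -0.22 ± 0.08 for PSME4. With the offsets these were 0.13 and -0.05.

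Of 7 other proteins that belong to the regulatory particle or bind it, 1 was higher and 6 lower. Their median was -0.11, which was 0.05 with the offsets and -0.04 without untreated replicate 2. The higher one was ADRM1, a ubiquitin receptor of the base, with 47.9, 65.2 and 60.5 CPM in RLN2 libraries, against 17.6, 44.8 and 42.7 CPM in untreated libraries. Its groups did not overlap, untreated replicate 2 was far below the rest, and its log2 fold change of 0.72 ± 0.31 was 0.40 without that library and 0.18 with the offsets. ECPAS, an adaptor that binds the proteasome, had -0.11 ± 0.06 (-0.00619 with the offsets). Among 4 genes that act in the transcription of subunit genes, 1 was higher and 3 lower, with a median of -0.11 (-0.02 with the offsets). NFE2L1, the factor that raises subunit transcription when proteasomes are inhibited, had 0.36 ± 0.13, which was 0.13 with the offsets, and NGLY1, the glycanase that NFE2L1 needs, had -0.16 ± 0.08, which was -0.03 with the offsets.

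Of 12 genes for ubiquitin, its activation and shuttle factors 11 were tested, 6 higher and 5 lower, with a median of 0.05 (0.01 with the offsets). UBA6, a ubiquitin-activating enzyme, had -0.20 ± 0.09, which was -0.02 with the offsets. The polyubiquitin gene UBB had 7 reads in untreated replicate 4 and 0 elsewhere; its coding sequence is repetitive and its count is uncertain. Of the 5 genes for interferon induction and peptide transport, which are known to be induced together with the immunoproteasome, 3 were higher and 2 lower, with a median of 0.13, which was -0.03 with the offsets and 0.02 without untreated replicate 2. NLRC5, a transactivator of class I genes, had 0.30 ± 0.24 (0.09 without that replicate), and TAP2, a peptide transporter subunit, -0.03 ± 0.09. All 5 had overlapping groups. Of the 3 immunoproteasome genes 2 had no overlap, where 21.4% of all genes had none. The difference between these lists was not tested.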

How the data were processed

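For every library the authors deposited a table of raw counts per gene (columns for either strand, the forward and the reverse one), made with STAR on hg38, per the submitters' processing notes. The sources used here do not give the STAR version or annotation release. Of these columns the reverse was used: it held 17.8 to 19.8 reads in genes for each read of the forward one, and there all 39 members equal the authors' merged count table. Lines for unmapped (6.73% to 17.4%), multimapping (5.31% to 27.0%), ambiguous (2.36% to 4.18%) and no-feature reads (17.5% to 32.0%) stayed out of library sizes and tests, as did repeated IDs of the Y chromosome's pseudoautosomal copies.

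Counts were filtered and TMM-scaled in edgeR 4.0.16 (R 4.3.3, limma 3.58.1) and compared by its quasi-likelihood F test, two-sided, with treatment as the only term; adjusted p under 0.05 was called. DESeq2 1.42.0, limma-voom and other scalings, filters, columns and sets of libraries were alternatives, 18 in all. The test was checked on simulated data. Coordinates, lengths and GC content come from GENCODE 29 (GRCh38, the assembly of hg38), and promoters from RefSeq. The rule for members uses symbols alone, but this gene family, the lists and the tests were chosen with earlier results of these data known. The genes named are the catalytic, immunoproteasome, tissue-restricted and ubiquitin-handling subunits, the base chaperones, the 4 members with the smallest p in each direction, and 1 gene per direction of each list, of which 1 is not reported here; PSMC1, PSMC2, PSMD3 and other members named outside this rule were chosen after their values were seen.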

Additional observations from a re-analysis of the deposited data

How the results depend on the processing

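No member passed an adjusted p under 0.05 in any of the 18 alternatives; the smallest was 0.0942, for PSMC3 with no filter on low counts. Over all genes edgeR called 0 in the settings reported, 120 with no filter (115 higher), 3 without both libraries numbered 2 and 1 with the replicate block, and leaving out each library in turn gave 0 to 3. The labels give both groups numbers 2 and 3, but same-numbered libraries did not deviate together throughout (r = -0.30 and 0.11). That does not show that the numbers pair them, and the labels do not say. With the replicate block the members' median log2 fold change was 0.08. That value rests on the libraries numbered 2 and 3, because RLN2 replicate 1 and untreated replicate 4 have no partner. Both libraries numbered 2 stood apart from the others. Leaving out each library in turn gave members' medians of 0.04 to 0.09.

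With the GC content and length offsets 12 members turned sign, 11 of them to higher and PSMD8 to lower (-0.03, against 0.22). Of the genes named by rule, PSMB7 was -0.0165 with upper quartile scaling and -0.0243 with no scaling, and -0.0144 to 0.0283 on leaving out each library. With the offsets PSMD14 was 0.000952, PSMD5 0.0452, PSMD10 0.0282 and PSMG3 -0.0853 (0.28 without them). Without both libraries numbered 2 PSMD5 was 0.0540, PSMD9 -0.0281 and TAP2 0.0068. On leaving out each library PSMD5 was -0.138 to 0.0203, PSMD9 -0.0199 to 0.227, TAP2 -0.0849 to 0.00456, and the PSMB8/PSMB5 log2 ratio -0.0124 to 0.122. The cause was not tested. Few reads per library limit PSMB9, PSMB10 and PSMB11. For PSMB10 another gene on the same strand also covers 58.3% of the coding bases, so its low count cannot be put down to depth alone.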
